A study of Mus musculus with 10 samples.

Results

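Nr4a1, Nr4a2, Nr4a3, Klf2, Klf3, Klf4 and Klf13 are 7 transcription factor genes of 2 families, followed here across mononuclear phagocytes of mouse Peyer's patch and blood. They were chosen by name, are 7 of the 32285 genes counted, and were measured in 14687 single cells that carried 1 sample tag each. RNA was counted as unique molecular identifiers (UMIs), each standing for 1 captured RNA molecule. Levels are given as CPM, the UMIs of a gene per 1000000 UMIs of all genes in the summed cells of a population. CPM is not divided by gene length, so levels were compared between populations and not between genes.

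NR4A proteins are orphan nuclear receptors whose genes are switched on quickly by receptor signals as immediate early genes. In the mouse, Nr4a1 is known to be needed for the non-classical, CD43-high blood monocyte, and Nr4a3 is known as a gene of activated and migratory dendritic cells. KLF proteins are zinc finger factors that bind GC-rich and CACCC sequences. Klf2 is known for restraining activation and for control of lymphocyte traffic, Klf4 for monocyte differentiation, Klf3 as a repressor of CACCC genes, and Klf13 for control of cytokine genes in lymphocytes.

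All cells came from female C57BL/6Rj mice. Peyer's patches, the lymphoid follicles of the small intestine, came from untreated mice, 30 in the first dataset and 20 in the second. They were digested for 40 min with collagenase and DNase at room temperature, and CD11c+ cells were enriched. Sorted from them were maturing and immature conventional type 2 dendritic cells (cDC2s, first dataset only) and LysoDCs, lysozyme-expressing dendritic cells, as follicular, immature, intermediate and mature subsets. Blood came from mice given clodronate liposomes 9 days earlier, 20 in the first dataset and 18 in the second. Liposomal clodronate kills phagocytes, so the blood cells measured are those of a refilling compartment and no untreated blood was measured. Sorted from blood, all CD115hi, were DN cells (negative for Ly6C and CD43, positive for CD11b and SIRPa), CD43+ monocytes and Ly6C+ monocytes. Each blood population pools many mice under 1 hashtag oligonucleotide per dataset, and LysoDCs, also pooled from many mice, carried 4 hashtags in each dataset that were summed. The tests below therefore rest on 2 pools per population, 1 in each dataset. Their p-values measure the spread that remains after a shift shared by all pools of a dataset is taken out. That spread was estimated from all 8 pools of the 4 populations together, with 3 residual degrees of freedom, and moderated across genes. Tissue, digestion, clodronate and, in the second dataset, the sequencing library of each blood population cannot be told apart from the populations themselves. In the second dataset the same 4 hashtags marked LysoDCs of every subset, with 1 subset in each library, but the library titled mature has its LysoDC hashtags listed as immature. LysoDCs of that dataset were therefore not divided into subsets. CCR2+ and CCR2- DN cells share a hashtag there.

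Promoter sequence is shown first for the 3 Nr4a genes, of which Nr4a1 differed from Nr4a2 and Nr4a3 in the cells where it was highest, and for Klf2. The sequences are RefSeq's (GRCm38.p6), written 5′ to 3′ on the gene's strand, from up to 250 bases before the annotated start and leaving out bases of annotated exons. Capitals mark TGACG on either strand (read as CGTCA on the other strand), the core of the cAMP response element, and the MEF2 site. Nr4a1 lies at chr15:101266596-101266845 (+), inside the annotated span of the gene but outside its exons. Nr4a2 lies at chr2:57124004-57124253 (-), Nr4a3 at chr4:48045055-48045152 (+) and Klf2 at chr8:72318812-72319032 (+), all upstream of the annotated genes.
Nr4a1: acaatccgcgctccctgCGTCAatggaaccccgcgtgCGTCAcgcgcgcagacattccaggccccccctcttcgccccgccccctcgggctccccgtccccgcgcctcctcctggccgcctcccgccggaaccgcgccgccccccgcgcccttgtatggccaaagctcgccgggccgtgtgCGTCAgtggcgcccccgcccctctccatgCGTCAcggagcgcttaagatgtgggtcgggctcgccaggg
Nr4a2: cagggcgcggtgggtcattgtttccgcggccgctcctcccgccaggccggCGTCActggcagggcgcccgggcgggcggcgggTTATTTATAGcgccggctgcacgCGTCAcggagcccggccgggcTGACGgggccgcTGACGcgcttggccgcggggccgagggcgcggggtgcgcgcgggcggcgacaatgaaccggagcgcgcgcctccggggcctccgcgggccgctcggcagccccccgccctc
Nr4a3: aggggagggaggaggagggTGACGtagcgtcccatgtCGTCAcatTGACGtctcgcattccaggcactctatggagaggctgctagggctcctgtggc
Klf2: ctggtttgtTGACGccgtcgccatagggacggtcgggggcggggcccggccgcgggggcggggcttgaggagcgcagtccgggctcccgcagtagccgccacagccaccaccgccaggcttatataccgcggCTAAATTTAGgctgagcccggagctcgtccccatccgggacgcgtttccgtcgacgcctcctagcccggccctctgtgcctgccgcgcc
TGACG stood 4 times in the 250 bases before the start of each of Nr4a1, Nr4a2 and Nr4a3, and 3 of the 4 in Nr4a3 are in the stretch printed. It stood 1 time each for Klf2, Klf4 and Klf13 and 0 times for Klf3. Of 32536 promoters of the same length, 17.9% held TGACG and 45, or 0.138%, held it 4 times or more. The count of 4 or more was chosen after these matches were seen. The MEF2 site stood 1 time in Nr4a2 and 1 time in Klf2, against 2.89% of all promoters. The full site TGACGTCA (1.56% of promoters), the NR4A site AAAGGTCA (1.35%) and the CArG box (1.48%) had no match in the 7. CACCC, held by 52.1% of promoters, matched 5 times in Klf3, 3 times in Nr4a3, 1 time each in Nr4a2, Klf2 and Klf13, and 0 times in Nr4a1 and Klf4. GGGCGG, held by 33.0%, matched between 1 time (Nr4a3) and 6 times (Klf3), and TATAAA, held by 12.3%, matched 1 time in Nr4a2, within the bases of its MEF2 site. The counts cover all 250 bases, also those not printed because an annotated exon begins there: 133 in Klf3, 152 in Nr4a3 and 29 in Klf2. Some CACCC and GGGCGG matches lie in those bases, among them the only CACCC of Klf2 and the only GGGCGG of Nr4a3. These 8 motifs, searched on both strands, are all that were looked for, and a match describes letters only.

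The populations carried their labelled markers with some mixing, and DN cells also carried cDC2 markers. Of 11878 and 13111 barcodes, 8343 and 8516 had 1 hashtag, and 7217 and 7470 of those passed filters of at least 1000 UMIs, at least 500 genes and at most 10% mitochondrial UMIs. The 2 datasets shared 37 barcodes. Median UMIs per cell ran from 2312 in CD43+ monocytes of the second dataset to 14279 in intermediate LysoDCs. The 8 LysoDC markers, among them Lyz1 and the C1q chains, summed to 31419 and 29580 CPM in LysoDCs. They also summed to between 1735 and 1902 CPM in the blood populations of the first dataset and between 257 and 408 CPM in those of the second. They reached 5116 CPM in maturing cDC2s against 1178 CPM in immature cDC2s. The 8 cDC2 markers, among them Cd209a and Clec10a, summed to 1191 CPM in immature and 727 CPM in maturing cDC2s. In DN cells they summed to 1148 CPM in the first dataset and 1638 CPM in the second, so that list did not set DN cells apart from cDC2s. The 8 CD43-high monocyte markers summed to 69.5 and 79.9 CPM in LysoDCs, against 3844 and 4386 CPM in CD43+ monocytes. The part of carried-over RNA or cells in the low values below was not tested.

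The 3 Nr4a genes were not all highest in the same cells. Nr4a1 was highest in CD43+ monocytes of the blood, whereas Nr4a2 and Nr4a3 were highest in cDC2s and close to the counting floor in blood.

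Nr4a1 stood at 13.4 CPM in maturing cDC2s, 8.75 in immature cDC2s, 0.592 in LysoDCs, 38.4 in DN cells, 264 in CD43+ monocytes and 41.5 in Ly6C+ monocytes of the first dataset. In the second dataset it stood at 0.137 CPM in LysoDCs, 19.3 in DN cells, 221 in CD43+ monocytes and 67.3 in Ly6C+ monocytes. CD43+ monocytes were the highest in both datasets and LysoDCs the lowest, with 21 Nr4a1 UMIs in 2714 LysoDCs and 1 UMI in 681. In the order of the first dataset, Ly6C+ monocytes and DN cells did not differ beyond counting error (1.08-fold, 95% interval 0.889 to 1.31), nor did the 2 cDC2 populations, nor any neighbouring LysoDC subsets.

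Nr4a2 stood at 16.3 CPM in maturing cDC2s, 20.1 in immature cDC2s, 3.61 in LysoDCs, 0.912 in DN cells, 0.415 in CD43+ monocytes and 0.728 in Ly6C+ monocytes of the first dataset. The second dataset gave 2.05 CPM in LysoDCs, 0.799 in DN cells, 0.385 in CD43+ monocytes and 0.770 in Ly6C+ monocytes. The blood values rest on between 1 and 23 UMIs, and their order was not detectable at this depth. Among LysoDC subsets, mature cells were higher than the 3 others, which did not differ from their neighbours beyond counting error.

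Nr4a3 stood at 42.03 CPM in maturing cDC2s, 28.8 in immature cDC2s, 2.68 in LysoDCs, 0.391 in DN cells, 0.415 in CD43+ monocytes and 0.243 in Ly6C+ monocytes of the first dataset. Levels in the second were 2.05 CPM in LysoDCs, 0.348 in DN cells and 0.770 in Ly6C+ monocytes. CD43+ monocytes of the second dataset had 0 UMIs, which allows a level of up to 1.16 CPM (3 counts, counting error only). Both cDC2 populations were above every other population, and blood populations could not be ordered.

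The levels of the 4 Klf genes followed 1 pattern in both datasets: highest in CD43+ monocytes, next in Ly6C+ monocytes and DN cells, and lowest in Peyer's patch cells. They parted in the last of these, where Klf4 was high in cDC2s relative to LysoDCs and Klf2 was not.

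Klf2 stood at 35.6 CPM in maturing cDC2s, 50.7 in immature cDC2s, 56.4 in LysoDCs, 352 in DN cells, 722 in CD43+ monocytes and 492 in Ly6C+ monocytes of the first dataset. The second dataset held it at 36.6 CPM in LysoDCs, 447 in DN cells, 992 in CD43+ monocytes and 826 in Ly6C+ monocytes. As for Klf3, Klf4 and Klf13, the blood levels lay above the Peyer's patch levels in both datasets. The share of all genes with such an order was not counted. All 3 blood populations were higher in the second dataset and LysoDCs were lower.

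Klf3 stood at 46.5 CPM in maturing cDC2s, 48.9 in immature cDC2s, 33.0 in LysoDCs, 189 in DN cells, 362 in CD43+ monocytes and 238 in Ly6C+ monocytes of the first dataset. The second dataset gave 37.3 CPM in LysoDCs, 157 in DN cells, 414 in CD43+ monocytes and 188 in Ly6C+ monocytes. Neighbours in the order of the 6 Peyer's patch populations did not differ beyond counting error, but immature cDC2s and immature LysoDCs, at the ends of that order, did.

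Klf4 stood at 43.0 CPM in maturing cDC2s, 55.2 in immature cDC2s, 4.37 in LysoDCs, 205 in DN cells, 468 in CD43+ monocytes and 172 in Ly6C+ monocytes of the first dataset. Levels in the second were 2.87 CPM in LysoDCs, 213 in DN cells, 521 in CD43+ monocytes and 186 in Ly6C+ monocytes. LysoDCs were the lowest in both datasets.

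Klf13 stood at 75.2 CPM in maturing cDC2s, 73.2 in immature cDC2s, 104 in LysoDCs, 260 in DN cells, 513 in CD43+ monocytes and 459 in Ly6C+ monocytes of the first dataset. In the second dataset it stood at 98.7 CPM in LysoDCs, 202 in DN cells, 658 in CD43+ monocytes and 450 in Ly6C+ monocytes. Here cDC2s, not LysoDCs, were the lowest. Klf3 overlaps the antisense gene Gm20033, and Klf13 overlaps Gm27252 and E030018B13Rik on the other strand; all 3 were counted, and the strand setting of the counting is not given in the sources used here.

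**Figure D1:**
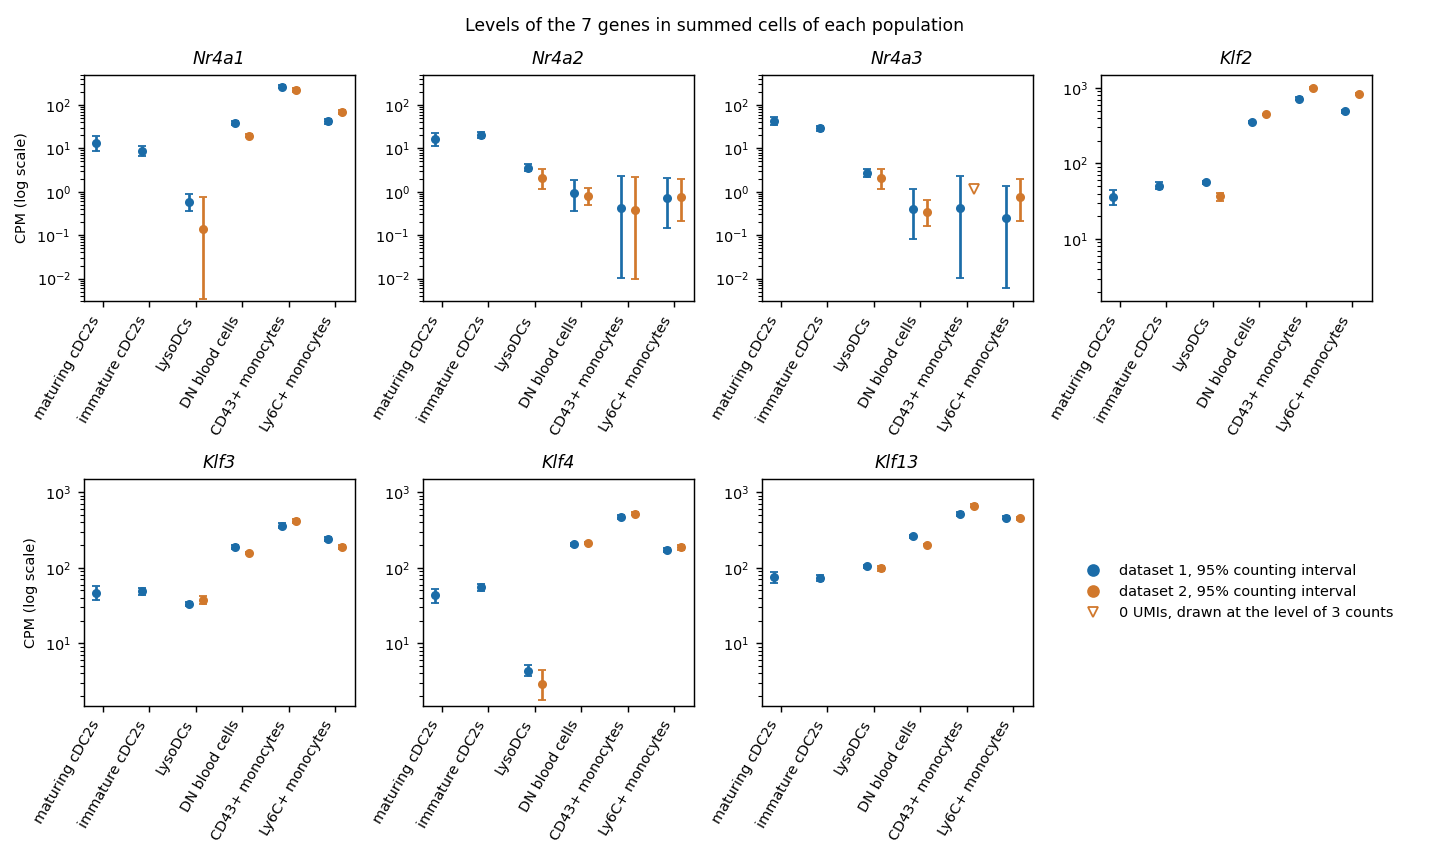
Levels of the 7 genes in CPM (y axis, log scale) in the summed cells of each population (x axis), in the first dataset (blue) and the second (orange), with 95% intervals for counting error only. Nr4a1 and the Klf genes are highest in CD43+ monocytes, Nr4a2 and Nr4a3 in the 2 cDC2 populations, and the open triangle marks the limit that 0 UMIs allow for Nr4a3.

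LysoDCs differed from each blood population in all 7 genes. Nr4a1, Klf2, Klf3, Klf4 and Klf13 were lower and Nr4a2 and Nr4a3 higher, with edgeR's quasi-likelihood test over 11458 genes, Benjamini-Hochberg adjusted p at most 0.05. Against Ly6C+ monocytes, 24.8% of all genes tested were called lower and 25.9% higher. Against CD43+ monocytes these shares were 26.5% and 28.4%, and against DN cells 26.1% and 26.0%, so calls were common in these comparisons. The 3 comparisons share the LysoDC pools. Nr4a2 and Nr4a3 entered the test only through those pools, as their levels in every blood pool fell under the filter on low counts.

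Nr4a1 had a log2 change in LysoDCs against CD43+ monocytes of -8.63 ± 0.68 (SE, n = 2 pools each, edgeR adjusted p = 0.000512). Against Ly6C+ monocytes it was -6.72 ± 0.68 (edgeR adjusted p = 0.00139), and against DN cells -5.72 ± 0.68 (edgeR adjusted p = 0.0022). The change against DN cells did not pass when hashtags were called from a centred log ratio per cell with k-means (-3.28, edgeR adjusted p = 0.0511). On few UMIs in LysoDCs, the size of these changes was uncertain. It was smallest under that hashtag call, at -6.10 against CD43+ and -4.22 against Ly6C+ monocytes, and largest without LysoDC pool 1, at -10.35, -8.44 and, against DN cells, -7.44.

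Klf4 had a log2 change in LysoDCs of -6.67 ± 0.24 against CD43+ monocytes, -5.41 ± 0.23 against Ly6C+ monocytes and -5.65 ± 0.23 against DN cells. The largest of the 3 edgeR adjusted p-values was 4.17e-08. Klf2 fell by 3.83 on the log2 scale against CD43+ monocytes, by 3.66 against Ly6C+ monocytes and by 2.96 against DN cells, with edgeR adjusted p of at most 0.00139. Klf3 had log2 changes of -3.19, -2.52 and -2.23 in the same order of references, and Klf13 of -2.24, -2.08 and -1.11. Klf2, Klf3, Klf4 and Klf13 passed in LysoDCs against all 3 blood populations under every one of 21 alternatives. Fewer cells that hold a gene and less RNA per cell cannot be told apart in such sums.

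Nr4a2 and Nr4a3 were higher in LysoDCs, but on few UMIs, some of them in cells that clustered with other populations. Both were kept for testing only because of their level in LysoDCs, so their calls as higher depend on that selection. The log2 change of Nr4a2 was 1.999 ± 0.52 against Ly6C+ monocytes (edgeR adjusted p = 0.00844), 3.11 ± 0.73 against CD43+ monocytes and 1.73 ± 0.40 against DN cells. For Nr4a3 it was 2.22 ± 0.66 (edgeR adjusted p = 0.0161), 3.80 ± 0.998 and 2.70 ± 0.53. The ratio of Nr4a3 levels in LysoDCs over Ly6C+ monocytes was 11.02 (95% counting interval 1.93 to 440) in the first dataset, where Ly6C+ monocytes had 1 UMI. In the second dataset it was 2.66 (0.848 to 11.01), an interval that includes 1. Against Ly6C+ monocytes neither passed with DESeq2's Wald test (adjusted p = 0.0609 for Nr4a2 and 0.0915 for Nr4a3), nor without LysoDC pool 1 (edgeR adjusted p = 0.175 and 0.184) or Ly6C+ pool 1 (0.134 and 0.234). Nr4a3 also missed with each cell given to its highest hashtag (0.0860). Against CD43+ monocytes neither passed without LysoDC pool 1 (edgeR adjusted p = 0.0718 and 0.0848). Without CD43+ pool 1 Nr4a2 did not pass (0.0606), nor did Nr4a3 without CD43+ pool 2 (0.0709). Against DN cells Nr4a2 did not pass without LysoDC pool 1 (0.145). With cells thinned to 1000 UMIs, or with hashtags called from a log ratio per cell, both genes were too low to be tested. In the second dataset, 7 Nr4a3 UMIs lay in 12 LysoDCs of a cluster of mainly DN cells led by Epcam and Ly6a. The 665 LysoDCs of the cluster led by C1qa had 1.11 CPM of Nr4a3, against 0.770 CPM in Ly6C+ monocytes, and 2.09 CPM of Nr4a2. Without stray cells, those in clusters holding under 5% of their population, Nr4a3 was not tested and Nr4a2 was still called.

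CD43+ monocytes had more Nr4a1, Klf3 and Klf4 than Ly6C+ monocytes, while Klf2 and Klf13 did not pass. In this comparison 13.5% of all genes were called higher and 14.5% lower, and 3 of the 7 members were called higher and 0 lower.

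Klf4 showed a log2 change in CD43+ over Ly6C+ monocytes of 1.26 ± 0.18 (SE, n = 2 pools each, edgeR adjusted p = 0.000644). The pools gave ratios of 2.72 and 2.81. The call was lost when hashtags were called from a centred log ratio per cell, with clara or k-means (edgeR adjusted p = 0.205 and 0.206, log2 change 1.27 in both).

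Nr4a1 showed a larger change with a larger error, 1.90 ± 0.45 (edgeR adjusted p = 0.0390). The pools gave ratios of 6.36 and 3.28. It did not pass with each cell given to its highest hashtag (edgeR adjusted p = 0.0862) or under the per-cell log ratio calls (0.161 and 0.168). It also did not pass without LysoDC pool 1 (0.0658) or 2 (0.0641), which leave this comparison's own pools in place, or without CD43+ pool 1 (0.184) or 2 (0.236). Its log2 change over all alternatives stayed between 1.28 and 2.71.

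Klf3 was higher by 0.67 ± 0.15 (edgeR adjusted p = 0.00740), and did not pass without CD43+ pool 2 (0.117) or Ly6C+ pool 2 (0.103). Klf2 (0.18 ± 0.36, edgeR adjusted p = 0.756) and Klf13 (0.16 ± 0.17, 0.516) did not pass, and each had higher levels in CD43+ monocytes in both datasets. Nr4a2 and Nr4a3 did not pass either, on between 0 and 4 UMIs a pool.

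DN cells had less Nr4a1, Klf3, Klf4 and Klf13 than CD43+ monocytes. In this comparison 16.2% of all genes were called lower and 17.1% higher, and 4 of the 7 members were called lower and 0 higher. Nr4a1 had a log2 change of -2.91 ± 0.45 (SE, n = 2 pools each, edgeR adjusted p = 0.0103), Klf13 of -1.13 ± 0.17 (0.000702), Klf4 of -1.02 ± 0.18 (0.00159) and Klf3 of -0.95 ± 0.15 (0.000757). Nr4a1 lost its call under the per-cell log ratio calls (edgeR adjusted p = 0.0646 and 0.0685) and without CD43+ pool 1 (0.0930) or 2 (0.106), and Klf4 under the per-cell log ratio calls (0.278 and 0.281). Klf2 was lower in DN cells of both datasets, with ratios of 0.487 and 0.450, but did not pass (-0.87 ± 0.36, edgeR adjusted p = 0.124). It passed with DESeq2 (adjusted p = 0.0386), without a filter on low counts (edgeR adjusted p = 0.000223) and without LysoDC pool 1 (0.00246) or 2 (0.00258).

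Against Ly6C+ monocytes, Klf13 alone of the 7 was called in DN cells, and it was lower. In this comparison 7.39% of all genes were called lower and 7.37% higher. Klf13 had a log2 change of -0.97 ± 0.17 (SE, n = 2 pools each, edgeR adjusted p = 0.00521), with ratios of 0.565 and 0.450, and did not pass without Ly6C+ pool 2 (0.0538). Nr4a1 differed between datasets. Its ratio in DN cells over Ly6C+ monocytes was 0.926 in the first and 0.287 in the second (log2 change -1.01 ± 0.45, edgeR adjusted p = 0.231). Klf2 (-0.70 ± 0.36, edgeR adjusted p = 0.272), Klf3 (-0.28 ± 0.15, 0.232) and Klf4 (0.24 ± 0.18, 0.402) did not pass. Klf2 did pass without a filter on low counts (edgeR adjusted p = 0.00731) and without LysoDC pool 1 (0.0206) or 2 (0.0213).

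**Figure D2:**
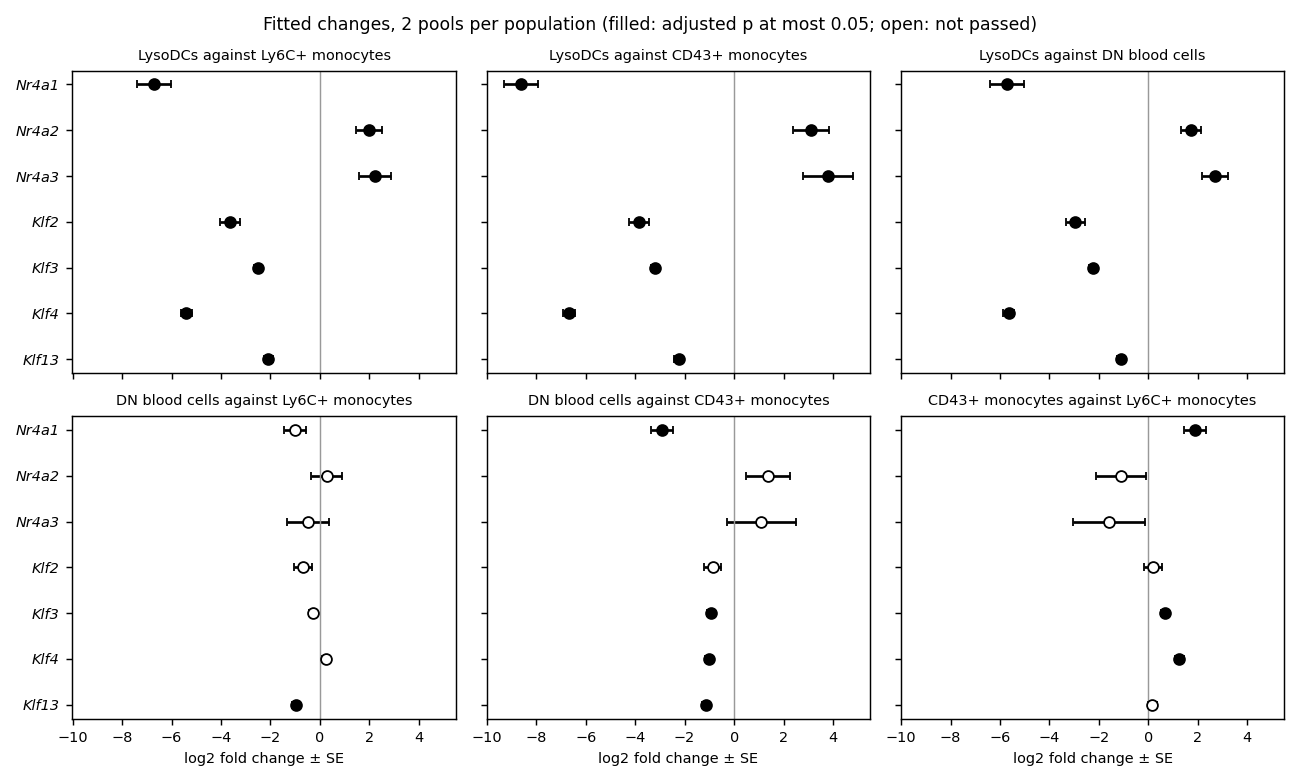
Log2 change of each gene (x axis) in 6 comparisons, with bars of 1 SE from edgeR over 2 pools per population; filled points passed an adjusted p of 0.05. In the 3 comparisons of LysoDCs with blood all points are filled, on both sides of 0, while CD43+ over Ly6C+ monocytes has 3 filled points and DN cells over Ly6C+ monocytes 1.

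Within the DN gate, Nr4a1 was not spread evenly. Cells were clustered in each dataset without the 7 genes. In the first dataset 380 DN cells fell in the 2 clusters led by Ace, Ear2 and other genes of CD43-high monocytes, and they held 207 of the 295 Nr4a1 UMIs of DN cells. Their level was 142 CPM, against 14.2 CPM in the other DN cells. In the second dataset 269 DN cells fell in the CD43-high monocyte-like cluster and held 153 of 556 Nr4a1 UMIs. Their level was 155 CPM, against 14.5 CPM in the other DN cells. The DN cells outside those clusters thus had close levels in the 2 datasets, although all DN cells together had 38.4 and 19.3 CPM.

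Nr4a1 in all DN cells against Ly6C+ monocytes, which did not pass, was called lower without DN pool 1 (log2 change -1.52, edgeR adjusted p = 0.0325) or Ly6C+ pool 1 (-1.66, 0.00422), and with each cell thinned to 1000 UMIs (-0.81, 0.0495). Klf2 and Klf4 differed less than Nr4a1 between DN cells inside and outside the clusters. Klf2 stood at 583 and 923 CPM in DN cells inside those clusters, against 298 and 430 CPM in the DN cells outside, and Klf4 at 315 and 342 CPM, against 180 and 209 CPM. Ly6C+ monocytes of the first dataset that fell in the cluster led by Ace and Ear2, 50 of 931 cells, had 136 CPM of Nr4a1, against 41.5 CPM in all Ly6C+ monocytes.

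In cDC2s, Nr4a3 was concentrated in a small cluster led by Ccr7, Cd83 and Ccl22. CCR7 guides dendritic cells to draining lymph nodes, and the cluster is called CCR7-high dendritic cell-like from the markers Ccr7, Ccl22 and Cacnb3. It held 41 of 261 maturing cDC2s, with 65 of their 85 Nr4a3 UMIs, and 78 of 970 immature cDC2s, with 120 of their 214. Nr4a3 stood at 219 CPM in the maturing cDC2s of the cluster and at 11.6 CPM in those outside it. In immature cDC2s it stood at 216 CPM inside and 13.7 CPM outside. Nr4a2 in immature cDC2s was 64.7 CPM inside and 16.4 CPM outside, but in maturing cDC2s 16.8 CPM, on 5 UMIs, and 16.2 CPM. The Klf genes went the other way or were level there: in immature cDC2s, Klf13 stood at 16.2 CPM inside and 77.8 CPM outside, and Klf4 at 32.3 and 57.0 CPM. Levels by cluster describe cells of 1 dataset, with no test.

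**Figure D3:**
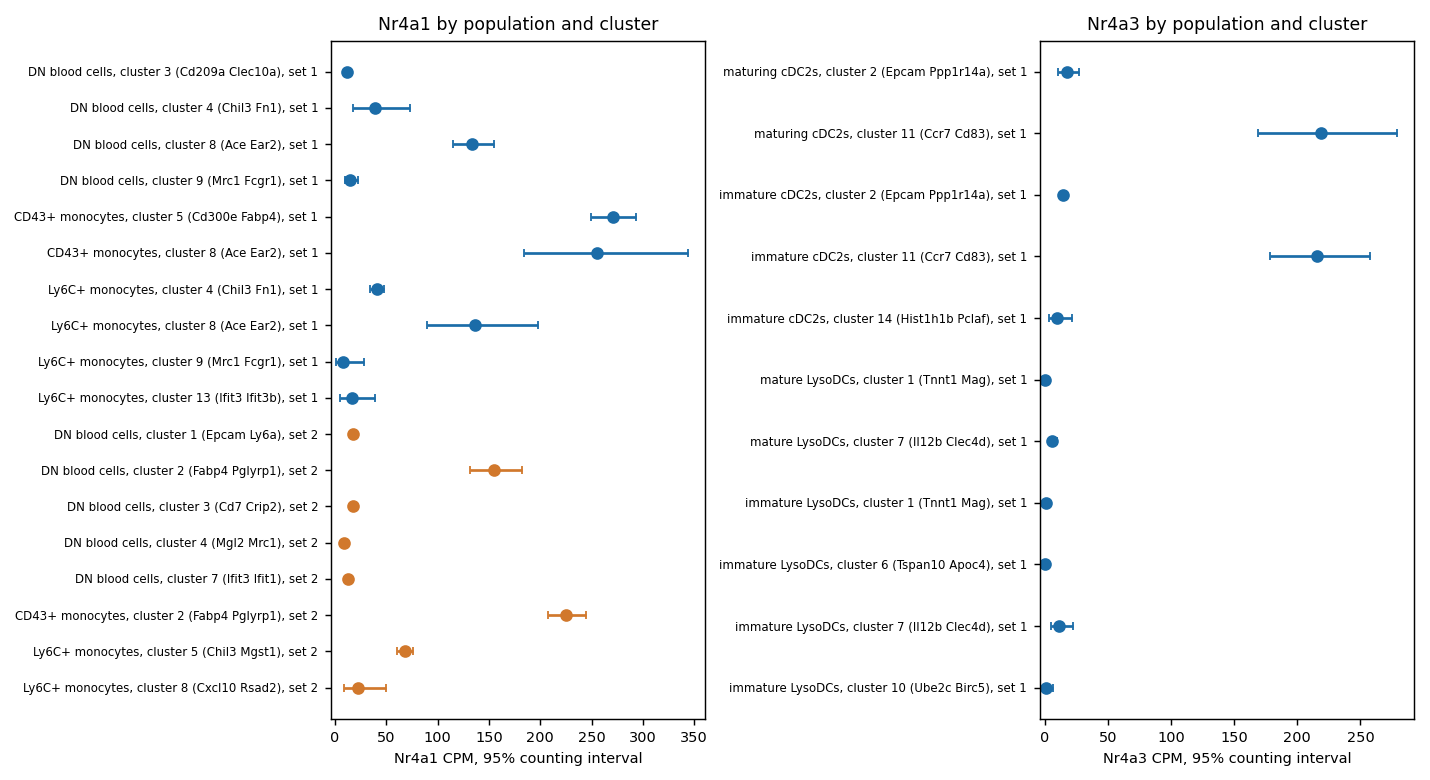
Nr4a1 in blood populations (left) and Nr4a3 in Peyer's patch populations (right) by cluster, in CPM with 95% counting intervals, for parts of at least 40 cells (blue first dataset, orange second). Nr4a1 in DN cells is at 134 and 155 CPM in the clusters led by Ace and Ear2 or by Fabp4, and Nr4a3 is at 219 and 216 CPM in the Ccr7-led cluster of both cDC2 populations.

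The remaining comparisons set 1 pool against 1 pool in the first dataset, so they have no test. A member was called at 2-fold or more where the higher level was at least 10 CPM, and intervals cover counting error only. In immature cDC2s against immature LysoDCs, 3 members were called higher and 0 lower, where 13.4% of genes were higher and 10.4% lower. Klf4 stood at 55.2 CPM in immature cDC2s and 3.53 CPM in immature LysoDCs, a ratio of 15.6 (10.8 to 23.3). Nr4a3 stood at 28.8 and 1.48 CPM, a ratio of 19.5 (11.1 to 37.1), and 9.24 without the Ccr7-led cluster. Nr4a2 stood at 20.1 and 2.28 CPM, a ratio of 8.81 (5.50 to 14.8). Nr4a1 stood at 8.75 and 0.455 CPM, a ratio of 19.2 (7.15 to 72.6) on 65 and 4 UMIs, and was not called because it was under the level needed. Klf3 stood at 48.9 and 30.9 CPM, a ratio of 1.58 (1.35 to 1.86), under 2-fold. Klf2 was nearly level, at 50.7 and 47.4 CPM, a ratio of 1.07 (0.929 to 1.23), and Klf13 was lower in immature cDC2s, with a ratio of 0.748 (0.670 to 0.833).

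Immediate early genes other than the Nr4a genes, which tissue digestion can switch on, summed to 3358 CPM in maturing and 4211 CPM in immature cDC2s. They summed to between 1360 and 1577 CPM in the LysoDC subsets of the same dataset, and to between 2072 and 2558 CPM in blood. Their part in the Nr4a levels of cDC2s was not tested.

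No member reached 2-fold in maturing against immature cDC2s, where 1.77% of genes were higher and 1.44% lower. Nr4a3 stood at 42.03 CPM in maturing and 28.8 CPM in immature cDC2s, a ratio of 1.46 (1.12 to 1.88). Without the Ccr7-led cluster the ratio was 0.848, the other direction. That cluster held 15.7% of maturing and 8.04% of immature cDC2s. Klf2 had a ratio of 0.702 (0.537 to 0.905) and Klf4 of 0.780 (0.611 to 0.985).

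Along the LysoDC subsets, Klf2 stood at 47.4 CPM in immature, 58.5 in intermediate and 82.9 CPM in mature LysoDCs, with 38.8 CPM in follicular LysoDCs. The mature level was above the immature one by a ratio of 1.75 (1.53 to 1.996), short of 2-fold. Among genes at 10 CPM or more in either subset, 1.83% were at least 2-fold higher in mature than in immature LysoDCs and 0.500% lower. Of the 7 members 0 were called either way. Nr4a2 (ratio 3.66, 2.14 to 6.48), Nr4a3 (3.31, 1.68 to 6.92) and Klf4 (2.04, 1.26 to 3.34) were above 2-fold but under 10 CPM. Nr4a2 stood at 8.33 CPM in mature LysoDCs and 2.28 CPM in immature LysoDCs, on 51 and 20 UMIs. Of the 51 UMIs, 14 lay in 31 mature LysoDCs that clustered with cDC2s (led by Epcam and Itgae), and the remaining mature LysoDCs had 6.32 CPM. Nr4a3 stood at 4.90 and 1.48 CPM, on 30 and 13 UMIs, and 11 of the 30 lay in 3 mature LysoDCs of the Ccr7-led cluster. Klf4, at 7.19 and 3.53 CPM, had 10 of its 44 UMIs in the 31 cells. Without the cells of the Epcam-led cluster the ratios were 2.77 for Nr4a2, 2.88 for Nr4a3 and 1.64 for Klf4. That Nr4a3 ratio still includes the 3 mature LysoDCs of the Ccr7-led cluster with their 11 UMIs, so it is not free of cells that clustered with cDC2s. cDC2 markers summed to 186 CPM in mature LysoDCs, against 45.8 CPM in immature LysoDCs. In follicular against immature LysoDCs 0 members were called, where 0.528% of genes at 10 CPM or more were higher and 0.347% lower. Nr4a1 had a ratio of 2.07 (0.490 to 9.96) on 6 and 4 UMIs, and Klf2 of 0.819 (0.696 to 0.960).

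**Figure D4:**
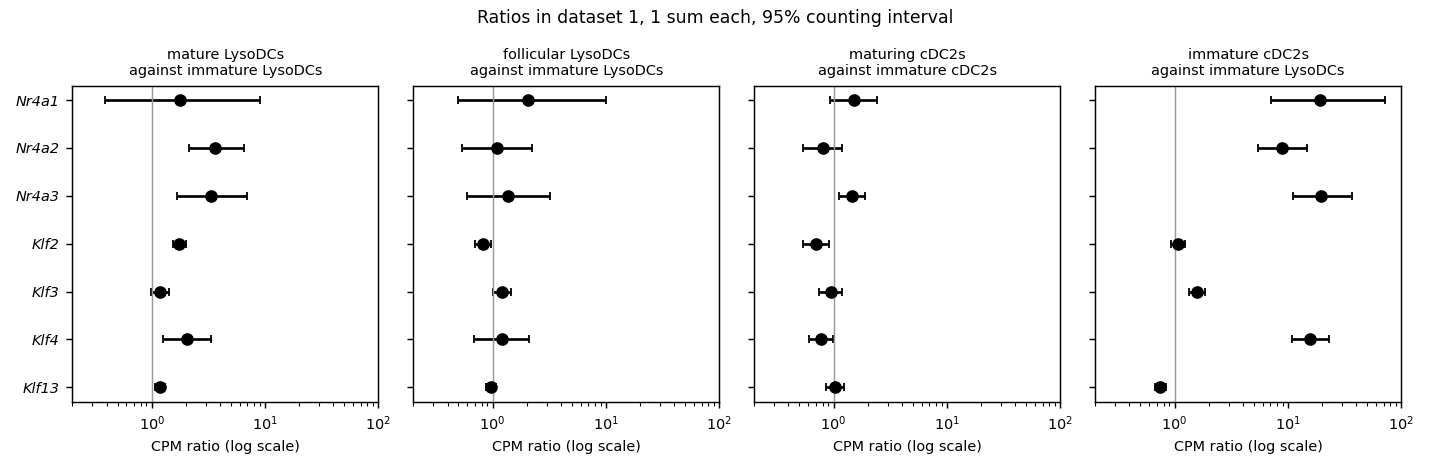
Ratio of each gene's level (x axis, log scale) between 2 populations of the first dataset, with 95% counting intervals; the gray line marks equal levels. In immature cDC2s over immature LysoDCs, Nr4a2, Nr4a3 and Klf4 lie at 8.81, 19.5 and 15.6, and in the 3 other comparisons no member at 10 CPM or more passes 2-fold.

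Counted by cell, Nr4a1 was found in 0.774% and 0.147% of LysoDCs, which had the most UMIs per cell (medians 13103 and 8999). It was found in 54.9% and 39.1% of CD43+ monocytes, with medians of 2963 and 2312 UMIs a cell, and in 15.1% and 26.1% of Ly6C+ monocytes, at medians of 4409 and 5920 UMIs. With each cell thinned to 1000 UMIs, which left out no cell, the shares were 0.0369% and 0% of LysoDCs, 3.87% and 2.53% of DN cells, 21.9% and 18.5% of CD43+ monocytes, and 4.73% and 6.24% of Ly6C+ monocytes. The 0 of 681 LysoDCs allows a share of up to 0.441%. The order with CD43+ monocytes first and LysoDCs last held on both counts.

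Nr4a3 was found in 14.6% of maturing and 11.3% of immature cDC2s, and Nr4a2 in 8.81% and 9.07%. The blood populations, which have almost none of either, gave shares between 0% and 0.462%. Thinned, Nr4a3 was found in 4.60% of maturing cDC2s, 3.09% of immature cDC2s and 0.221% and 0.441% of LysoDCs. The thinned LysoDC shares rest on 6 and 3 cells, and no order was read from them. Klf4 was found in 4.31% and 2.06% of LysoDCs, against 70.6% and 64.2% of CD43+ monocytes. Thinned, the Klf4 shares were 0.221% and 0.294% of LysoDCs and 35.4% and 36.8% of CD43+ monocytes. A single cell held at most 9 Nr4a3 UMIs among immature cDC2s and 30 Klf2 UMIs among DN cells.

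Genes most like each member were named by Pearson's r of log2(CPM + 1) over the 13 population sums, among 3525 genes at 50 CPM or more. These sums share libraries, and the values are a description. Nr4a2 and Nr4a3 were most like the same gene, the Ets-family repressor Etv3 (r = 0.960 and 0.969), and had r = 0.971 with each other. Next came Mdh2 (0.957) and Cfdp1 (0.933) for Nr4a2, and Cfdp1 (0.952) and Pdcd5 (0.938) for Nr4a3. Nr4a1 was most like Map3k5, a stress-signalling kinase (0.987), followed by Asph and Pdcd4 (both 0.985). Among the members it was nearest to Klf4 (r = 0.973) and had r = -0.478 with Nr4a2. Klf4 was most like Vav3 (0.994), Ebi3 and Krt80 (both 0.993). Klf3 was most like Xylt1 (0.993), Sept9 (0.992) and Itgal (0.991), the integrin alpha chain of LFA-1. Klf2 was most like Bbc3, a pro-apoptotic gene (0.983), Clec4a3 and Cebpg (both 0.981), and Klf13 most like Fry, Tmcc1 and Bach1 (0.981 or more).

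The other Klf genes were described from a list of 13, of which 7 were high enough to be tested. In LysoDCs against Ly6C+ monocytes 4 were lower and 1 higher, beside 24.8% and 25.9% of all genes, with a median log2 change of -0.90 against 0.003 over all genes. Klf10, a TGF-beta-induced family member, stood at 1.69 and 2.18 CPM in LysoDCs, against 41.0 and 56.0 CPM in Ly6C+ monocytes (log2 change -4.52 ± 0.18, edgeR adjusted p = 3.63e-08). Klf6, Klf9 and Klf11 were also lower. Klf7 was higher, at 52.1 and 62.7 CPM against 16.8 and 22.5 CPM (1.63 ± 0.19, edgeR adjusted p = 4.82e-05). In CD43+ against Ly6C+ monocytes 3 of the 7 were higher (Klf7, Klf9 and Klf10) and 0 lower, beside 13.5% and 14.5% of all genes. In DN cells against CD43+ monocytes the same 3 were lower and 0 higher, beside 16.2% and 17.1%. In DN cells against Ly6C+ monocytes Klf9 and Klf10 were lower and 0 higher, beside 7.39% and 7.37%. These comparisons share pools.

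Of 21 other nuclear receptor genes, 18 were tested, and in LysoDCs against Ly6C+ monocytes 2 were higher and 11 lower, beside 25.9% and 24.8% of all genes, with a median log2 change of -0.64. Nr1h3, the oxysterol receptor LXR alpha, stood at 399 and 326 CPM in LysoDCs, against 39.6 and 19.6 CPM in Ly6C+ monocytes (log2 change 3.77 ± 0.20, edgeR adjusted p = 2.42e-07). The retinoic acid receptor genes Rara (-4.64 ± 0.18) and Rarg (-4.19 ± 0.20) and the thyroid hormone receptor gene Thra (-3.80 ± 0.32) were lower, with edgeR adjusted p of at most 4.96e-06. In CD43+ against Ly6C+ monocytes 8 were higher, 2 lower and 8 did not pass, beside 13.5% of all genes higher and 14.5% lower. Pparg, the lipid sensor PPAR gamma, reached 72.2 CPM (first dataset) and 70.5 CPM (second) in CD43+ monocytes. Its levels in Ly6C+ monocytes were 4.13 and 5.96 CPM.

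Of 22 immediate early genes, 21 were tested. In CD43+ against Ly6C+ monocytes, where Nr4a1 was higher, 1 was higher, 5 were lower and 15 did not pass, beside 13.5% of all genes higher and 14.5% lower. Their median log2 change was -0.11, against 0.006 over all genes. Fos had 85.5 CPM (first dataset) and 33.5 CPM (second) in CD43+ monocytes, where Ly6C+ monocytes had 379 and 184 CPM (log2 change -2.46 ± 0.22, edgeR adjusted p = 8.51e-05). Atf3 (-1.70 ± 0.18) and Rhob (-0.96 ± 0.13) were lower too. The phosphatase gene Dusp2 was the 1 that was higher (2.28 ± 0.27, edgeR adjusted p = 0.000272). In LysoDCs against Ly6C+ monocytes 5 were higher and 9 lower, beside 25.9% and 24.8% of all genes, with Fos (-2.70), Fosl2 (-5.12) and Atf3 (-3.16) lower and Maff (4.07) higher. Of 10 heat shock genes, 9 were tested. In LysoDCs against Ly6C+ monocytes 5 of the 9 were higher and 0 lower. In CD43+ against Ly6C+ monocytes 2 were higher, 2 lower and 5 did not pass, where 13.5% of all genes were higher and 14.5% lower.

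Genes known in CD43-high monocytes, 17 in the list and all tested, were higher in CD43+ than in Ly6C+ monocytes in 15 cases and lower in 0 (13.5% and 14.5% of all genes), and lower in LysoDCs than in CD43+ monocytes in all 17 (26.5%). In DN cells against CD43+ monocytes 14 were lower and 0 higher (16.2% and 17.1%), and against Ly6C+ monocytes 7 were higher and 0 lower (7.37% and 7.39%). The list overlaps what the CD43 sort selects. Among genes linked to Klf2 in lymphocytes and endothelium, the homing integrin gene Itgb7 had 5.69 CPM (first dataset) and 2.32 CPM (second) in LysoDCs, against 254 and 177 CPM in Ly6C+ monocytes (log2 change -5.53 ± 0.27, edgeR adjusted p = 5.56e-07). The thrombomodulin gene Thbd had 0.0845 and 0.137 CPM in LysoDCs, against 10.2 and 15.4 CPM in Ly6C+ monocytes (-6.87 ± 0.98, edgeR adjusted p = 0.00333). In CD43+ against Ly6C+ monocytes, where Klf2 did not pass, Itgb7 (-1.04) was lower and Thbd (2.29) higher.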

How the data were processed

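Messenger RNA and hashtag reads were counted with Cell Ranger, 6.0.1 per the file headers and 2.0.0 with build mm10 per the submitters' processing notes; the values deposited are unnormalized UMI counts of genes by barcode, 91530239 and 81034175 in all. Hashtags were called with HTODemux (Seurat 5.3.0, centred log ratio per hashtag, quantile 0.99), which was also the way doublets were removed: barcodes with several hashtags (2422 and 4572) were left out, and doublets within a hashtag remain. Counts were summed per population and dataset. The 8 sums of the 4 populations in both datasets were tested together with edgeR 4.0.16 (TMM scaling, robust quasi-likelihood test, dataset as a term that pairs pools of the same experiment, R 4.3.3), with p-values adjusted over 11458 genes. Clustering, separate for each dataset, used scanpy 1.11.5 (2000 variable genes, 30 components, 20 neighbours, resolution 0.8), leaving out the 7 genes. Intervals are exact, 95%, and cover counting error only, and a count of 0 was limited at 3 counts. The method was tested on simulated data for CD43+ against Ly6C+ monocytes only. The changes put in were all in genes well above the levels of Nr4a2 and Nr4a3, so that test does not cover such low genes. Members and gene lists were chosen with earlier results of these data known. Genes named from a list were those called, if 5 or fewer, or up to 4 by smallest adjusted p; 1 gene of the list linked to Klf2, and the list's counts, are not reported here. The 8 leave-one-out fits and other alternatives were joined by 3 other HTODemux settings and by leaving out clusters, both chosen after seeing the data, as was narrowing the promoter window to 250 bases. Gene IDs matched GENCODE M21 for 32235 genes.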

Additional observations from a re-analysis of the deposited data

Results flagged for a closer look

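Barcodes of the first dataset in which no hashtag was called, 883 cells after the filters, are in none of the comparisons and carried 5 of the members above the level that 3 counts give. Their levels were 16.6 CPM for Nr4a1, 314 CPM for Klf2, 167 CPM for Klf3, 210 CPM for Klf4 and 223 CPM for Klf13. Nr4a2 and Nr4a3 had 3 and 2 UMIs there. The 4 Klf levels lie nearer to those of DN cells (352, 189, 205 and 260 CPM) than to those of LysoDCs (56.4, 33.0, 4.37 and 104 CPM).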

How the results depend on the processing

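Of 21 alternatives to each tested comparison, scaling with DESeq2's size factors shifted the median change of all genes by at most 0.034 (log2) and turned no member's direction. Direction turned for no member that passed. It turned for Nr4a2 in DN cells against Ly6C+ monocytes without DN pool 2 (-0.107) and without Ly6C+ pool 1 (-0.103), and for Nr4a3 there without Ly6C+ pool 2 (0.964). Over all alternatives that tested them, the changes of Nr4a2 and Nr4a3 there ran from -0.107 to 0.683 and from -1.235 to 0.964. Direction also turned in CD43+ against Ly6C+ monocytes for Klf13 without CD43+ pool 2 (-0.095, the highest being 0.383) and for Klf2 without Ly6C+ pool 1 (-0.181, the highest being 0.607).

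With no replicate block, that is without pairing the pools by dataset, genes called in DN cells against Ly6C+ monocytes numbered 963, against 1692 with it, and no member's call changed in any of the 6 comparisons. With each cell thinned to 1000 UMIs the totals were 704, against 1692 unthinned, in DN against Ly6C+, 2188 against 3810 in DN against CD43+, 1800 against 3202 in CD43+ against Ly6C+, and 3072 against 5813, 3570 against 6292 and 3138 against 5969 in LysoDCs against Ly6C+, CD43+ and DN cells. Genes called in both were not counted. Thinning leaves fewer UMIs by construction. Leaving out 1 pool moved these counts between 310 and 2253, 1538 and 3910, 1322 and 3597, 4132 and 6172, 4481 and 6594, and 4265 and 6134, in the same order.

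Members called lower in DN against Ly6C+ cells were 1, and 2 with no filter on low counts, with thinning or without DN cells of the Ace and Ear2 clusters (high in Nr4a1, and left out of DN cells alone, so this last count is no test), and 0 to 2 without a pool. In DN against CD43+ cells they were 4, 2 under both per-cell log ratio calls and 3 to 5 without a pool. Members called higher in CD43+ against Ly6C+ monocytes were 3, 1 under both per-cell log ratio calls and 1 to 3 without a pool. Members called higher in LysoDCs were 2 against each blood population. Thinning and both per-cell log ratio calls gave 0 against each, where Nr4a2 and Nr4a3 fell under the filter on low counts and were not tested, and leaving out stray cells or calling hashtags with k-means gave 1, Nr4a2, with Nr4a3 not tested. Against Ly6C+ monocytes DESeq2 gave 0 and the highest-hashtag call 1. Leaving out a pool gave 0 to 2 against Ly6C+ and CD43+ monocytes and 1 to 2 against DN cells. In mature against immature LysoDCs, thinning gave 1 member called at 2-fold or more, against 0. It was Nr4a2, at 13.2 CPM in mature and 0 in immature LysoDCs, found in only 6 and 0 thinned cells. The share of all genes called there under thinning was not counted. Beyond what is named, the cause was not tested. In the main fits, 7.39% of all genes were lower in DN against Ly6C+ cells and 16.2% in DN against CD43+ cells. Of all genes, 13.5% were higher in CD43+ against Ly6C+ monocytes. In LysoDCs 25.9%, 28.4% and 26.0% were higher against Ly6C+, CD43+ and DN cells. Totals of genes called moved with the setting too, so changes in these small counts are not read as results about the members. The hashtag call settings gave between 8343 and 8971 single-hashtag barcodes in the first dataset and between 7902 and 8887 in the second. Nr4a2 and Nr4a3 in blood, and Nr4a1 in LysoDCs, rest on 23 UMIs or fewer a pool, which limits their precision; for Nr4a1 this is a low level in the most deeply sequenced population of the first dataset.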

Other observations

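Barcodes with several hashtags, 2078 cells in the first dataset and 3099 in the second, had Nr4a1 at 24.4 and 5.11 CPM, Nr4a3 at 7.33 and 2.87 CPM, and Klf2 at 132 and 99.8 CPM. In the Il12b, Clec4d and H2-M2 cluster of LysoDCs in the first dataset, Nr4a2 stood at 8.02 CPM and Nr4a3 at 7.60 CPM, against 1.79 and 0.749 CPM in the cluster led by Tnnt1 and Mag. Klf2 stood at 74.2 CPM in the Il12b-led cluster and 55.7 CPM in the Tnnt1-led one. In the LysoDC-rich cycling cluster Klf2 stood at 33.3 CPM. Ly6C+ monocytes in the interferon-led clusters (Ifit3 and Cxcl10) had Nr4a1 at 16.8 and 22.8 CPM, on 5 and 6 UMIs, against 40.6 and 67.9 CPM in those of the Chil3-led clusters. These levels by cluster have no test.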
